A study of Homo sapiens with 2 samples.

Results

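Binding of TP73 at genes of the mitochondrial route to cell death was examined in TL-Om1, an established cell line derived from adult T-cell leukaemia, a cancer of mature T cells caused by the retrovirus HTLV-1. The genes were BBC3, BAX, PMAIP1, TP53AIP1, AEN, APAF1, BCL2, BCL2L1, MCL1 and BCL2L11. A peak was taken as theirs when its summit lay in the hg19 span of 1 of these 10 genes or within 20 kb of it. This gave 44 of the 18908 peaks in the list, spread over 9 of the 10 genes. The series holds 1 library of DNA immunoprecipitated with an antibody against TP73 and 1 input library of whole cell extract. Both come from TL-Om1 cells grown in serum-containing medium and fixed with formaldehyde for 10 min, and the labels name no genetic change or added agent in either. With 1 ChIP library behind the peaks, the values carry no replicate error, and no test between conditions was possible. The labels do not say which TP73 isoforms the antibody binds or the cells make, and RNA was not measured.

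TP73 belongs to the p53 family of transcription factors, which bind DNA as tetramers at pairs of a shared motif of 10 bases. In the mitochondrial pathway, BH3-only proteins (PUMA from BBC3, NOXA from PMAIP1, BIM from BCL2L11) bind and block the anti-apoptotic proteins BCL2, BCL-XL (from BCL2L1) and MCL1 or activate the pore-forming effector BAX. Pores in the outer mitochondrial membrane release cytochrome c, which joins APAF1 to form the apoptosome, the platform that activates caspases. AEN encodes a nuclease and TP53AIP1 a mitochondrial protein, both known as p53-induced promoters of apoptosis. BBC3, PMAIP1, BAX, APAF1, AEN and TP53AIP1 are textbook p53 targets. In T cells, BIM is a known trigger of death after loss of growth signals, and BCL2 and MCL1 support survival.

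The promoter sequences of 5 of the genes are shown first, because the genes described below differ in whether a strong peak lies at the gene start. They are the 250 bases before the start in RefSeq, on the strand of the gene and in 5′ to 3′ direction, from GRCh38.p14. That build differs from the hg19 build of the peaks, so these positions cannot be set against peak positions, and whether a summit falls inside a window was not determined from them. By the hg19 span, the strongest BBC3 summit lay 1.4 kb inside the gene, whereas the window holds bases before the start. BBC3 lies on the minus strand at chr19:47232668-47232917, PMAIP1 on the plus strand at chr18:59899746-59899995, APAF1 on the plus strand at chr12:98645040-98645289, AEN on the plus strand at chr15:88621090-88621339, and the first window of TP53AIP1 on the minus strand at chr11:128942872-128943121. Capitals mark matches to the p53-family motif of 10 bases with its 4 central bases intact and at most 1 mismatch elsewhere, and, for AEN, a pair of motif copies side by side.
BBC3: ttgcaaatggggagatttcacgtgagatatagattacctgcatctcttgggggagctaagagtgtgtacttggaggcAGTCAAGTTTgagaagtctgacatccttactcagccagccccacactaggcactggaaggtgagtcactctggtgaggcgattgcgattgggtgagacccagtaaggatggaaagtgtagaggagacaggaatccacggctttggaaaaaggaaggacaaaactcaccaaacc
PMAIP1: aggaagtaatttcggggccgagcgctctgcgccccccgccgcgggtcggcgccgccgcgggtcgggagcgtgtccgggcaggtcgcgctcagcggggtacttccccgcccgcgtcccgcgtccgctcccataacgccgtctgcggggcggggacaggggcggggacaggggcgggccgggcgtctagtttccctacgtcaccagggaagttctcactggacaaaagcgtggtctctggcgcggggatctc
APAF1: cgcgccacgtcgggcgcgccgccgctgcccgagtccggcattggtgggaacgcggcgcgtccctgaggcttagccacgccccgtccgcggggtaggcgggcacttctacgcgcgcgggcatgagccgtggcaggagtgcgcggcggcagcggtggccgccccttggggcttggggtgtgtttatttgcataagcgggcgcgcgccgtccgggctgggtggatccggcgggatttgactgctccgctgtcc
AEN: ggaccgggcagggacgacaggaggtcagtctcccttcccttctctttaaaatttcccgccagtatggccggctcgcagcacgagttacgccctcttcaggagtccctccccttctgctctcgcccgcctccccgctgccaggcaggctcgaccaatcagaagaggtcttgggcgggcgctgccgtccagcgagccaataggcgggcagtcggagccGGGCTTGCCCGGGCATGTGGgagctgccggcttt
TP53AIP1: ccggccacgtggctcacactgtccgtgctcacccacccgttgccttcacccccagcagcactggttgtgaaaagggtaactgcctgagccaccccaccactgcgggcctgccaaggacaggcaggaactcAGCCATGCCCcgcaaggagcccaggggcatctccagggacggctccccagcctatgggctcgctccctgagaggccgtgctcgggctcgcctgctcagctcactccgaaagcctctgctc

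The motif is its own reverse complement, so 1 search covers both strands. The AEN window held an exact copy, gggcttgccc, directly followed by a second copy, gggcatgtgg, with 2 mismatches in the 20 bases. The pair began 34 bases before the start. Of 35116 RefSeq promoter windows of this length, 5.57% held an exact copy and 0.356% held 2 copies side by side with at most 3 mismatches in all. BBC3, TP53AIP1 and BCL2L11 had no exact copy but had 1 with a single mismatch in a window, which 28.0% of all windows also had or bettered. The windows of PMAIP1, APAF1, BAX, BCL2 and BCL2L1 had no match at this level, and MCL1 was not among the windows. A match is a string of letters and not a measured site, and the strongest TP73 peaks below include genes with and without one in this window.

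As a set the 44 peaks had folds close to those of the whole list in the middle of the range and a larger share of high folds. Fold is the authors' value for each peak, the ChIP pileup at the summit over the control background. The median was 12.0 (quartiles 8.53 and 27.4), against 11.3 (8.31 and 18.7) over all peaks. A fold of at least 20 was reached by 14 of the 44 peaks (31.8%), against 23.0% of all peaks. A fold of at least 50 was reached by 5 peaks (11.4%), against 3.54% of all peaks. These 5 lay at 5 different genes, BBC3, PMAIP1, APAF1, AEN and BCL2. In these counts, set and list were close in the middle of the range and apart in its upper part. The gap in the upper part rests on 14 and 5 of 44 peaks without a replicate, and it was not tested. The genes were chosen with earlier results of these data known. The list was not limited to peaks near genes, so the gap is not shown to be particular to apoptosis genes. The 10 windows held 51.9 peaks per Mb over 848 kb, against 6.30 per Mb over the chromosomes as a whole, which include long stretches without genes. Windows around other genes were not counted here, so this density is not shown to be particular to apoptosis genes.

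**Figure D1:**
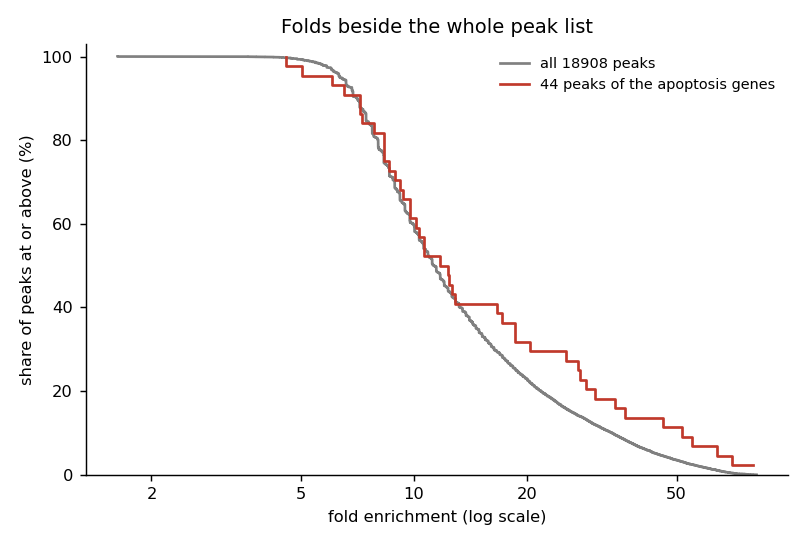
Share of peaks (vertical axis, percent) at or above a given fold enrichment (horizontal axis, log scale) for the 44 peaks of the apoptosis genes and for all 18908 peaks. The lines run close together up to a fold of about 12 and part above it, with 31.8% against 23.0% of peaks at a fold of at least 20.

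The number of reads behind each fold was solved from the peak's fold together with its p-value, since both are computed from the ChIP pileup and the background. The 44 summits were covered by 24 to 278 ChIP reads, with a median of 45.5, against 43.0 over all peaks. More than 100 reads covered 13 of them (29.5%, against 15.4% of all peaks) and more than 200 covered 6 (13.6%, against 3.05%). Intervals given below are exact 95% Poisson intervals of the reads. They cover counting error of the ChIP reads only, since there is no replicate. Reads without molecular identifiers are not independent molecules, so the intervals may be too narrow even for that. The background was held fixed, so its own counting error is left out. No ceiling on reads was assumed, and upper limits of the strongest peaks exceed 284, the highest read number in the list.

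The strongest peaks of 5 pro-apoptotic genes lay within 2 kb of the gene start, and those of the 3 anti-apoptotic genes did not. Peaks within this limit are called start peaks here. At BBC3, PMAIP1, BAX, APAF1 and AEN the highest peak lay within 2 kb of the span end where the gene starts, with folds of 79.9, 70.2, 30.2, 63.9 and 54.9. At BCL2, BCL2L1 and MCL1 the gene start also carried a peak, but with folds of 12.9, 12.4 and 9.74, near the list's median of 11.3. Their highest peaks lay elsewhere, 138.5 kb and 13.3 kb into BCL2 and BCL2L1 and 7.0 kb beyond the far end of MCL1. BCL2L11 had no peak within 2 kb of its start and TP53AIP1 had none at all. Reads at the highest start peak numbered 123 to 278 in the first 5 genes and 33 to 47 in the 3 anti-apoptotic genes. The grouping and this gap depend on the limit of 2 kb. The highest BBC3 peak lay 1.4 kb inside the gene, and the BBC3 peak 0.2 kb inside had 99 reads and a fold of 28.6. Beyond the limit, the pro-apoptotic gene BCL2L11 had a peak of 31 reads 2.3 kb before its start. The first 5 genes were put together because their start peak was their highest, and start peaks of other genes were not counted here. The spans are known to the nearest kb, so distances under 1 kb are approximate. Gene direction came from RefSeq for 9 genes and from general knowledge for MCL1.

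**Figure D2:**
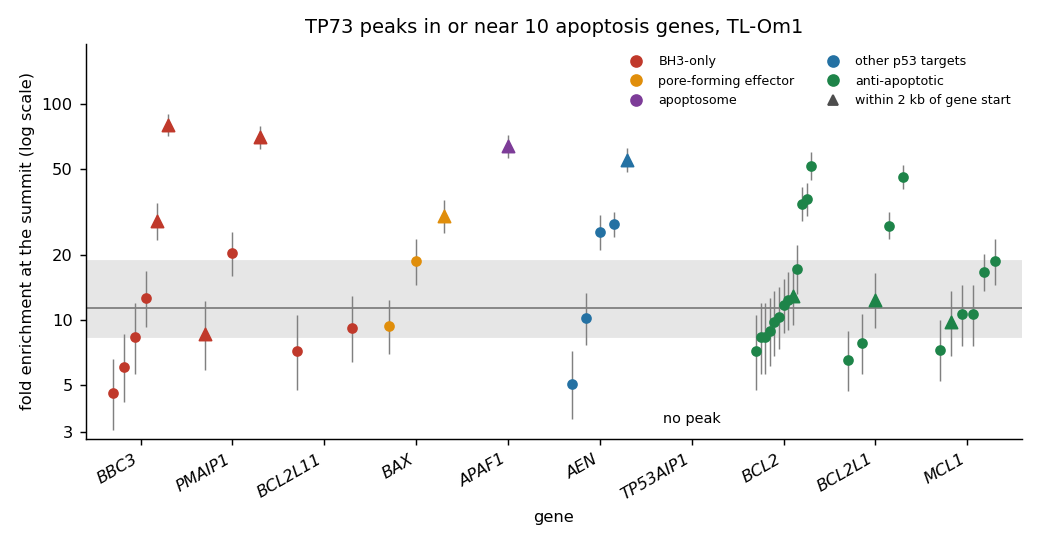
Fold enrichment (vertical axis, log scale) of each of the 44 peaks by gene, coloured by role, with bars for the 95% Poisson interval of the reads. The bars hold the control background fixed. The grey line and band are the median and quartiles of all peaks, and triangles mark summits within 2 kb of the gene start. Triangles lead BBC3, PMAIP1, BAX, APAF1 and AEN and sit near the grey line in BCL2, BCL2L1 and MCL1.

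**Figure D3:**
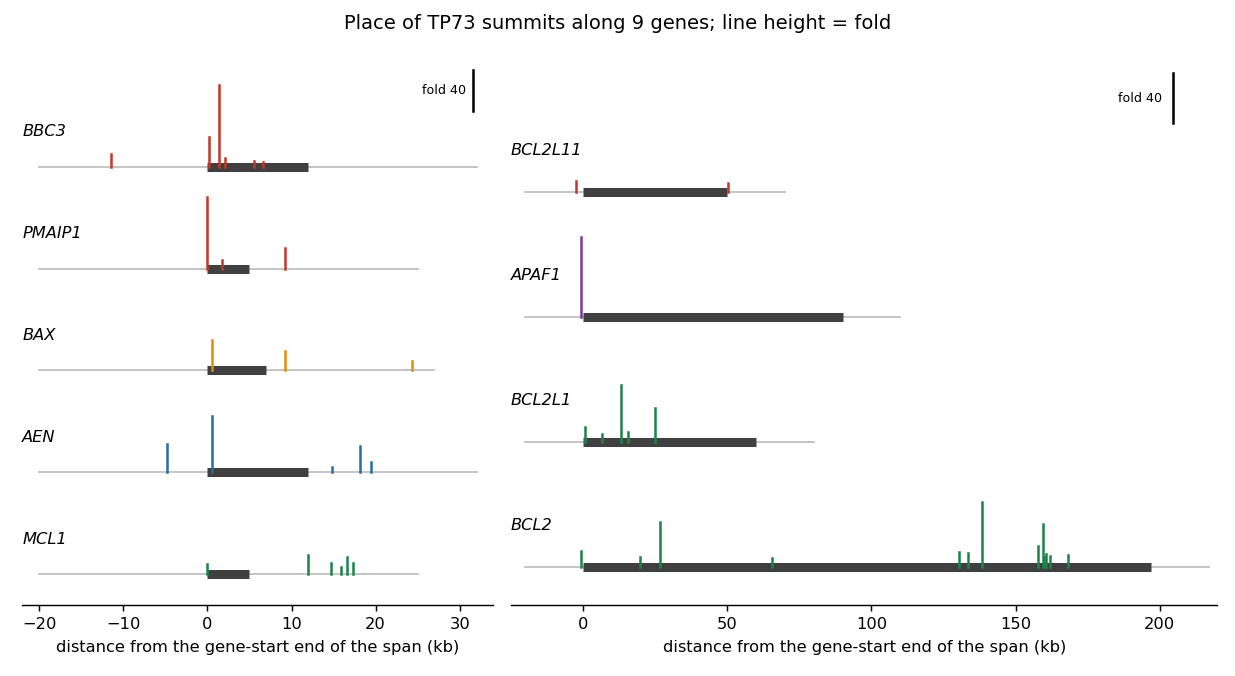
Place of each summit along 9 genes, as distance in kb from the span end where the gene starts. Dark bars are gene spans, thin lines the 20 kb on each side, and the height of a coloured line is the fold, scaled by the bar marked fold 40 in each panel. The tallest line stands within 2 kb of the gene start in BBC3 (1.4 kb inside the gene), PMAIP1, APAF1, AEN and BAX and farther inside the gene in BCL2 and BCL2L1.

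BBC3, which encodes the BH3-only protein PUMA, carried the strongest peak of the set. It spanned 47734312 to 47734929 on chromosome 19, 1.4 kb inside the gene from its start, with a fold of 79.9, a −log10 q-value of 435 and 278 ChIP reads (246 to 313). Its fold was the fourth highest in the list, shared by 3 peaks. No peak of the list had more than 284 reads. Whether a cap on reads per position set this top was not tested, so the highest reads, folds and ratios may be understated. A second strong peak stood at the start itself, 47735649 to 47736027, with a fold of 28.6 and 99 reads (80.5 to 121). The first had 2.81 times the reads of the second, and the intervals did not overlap. Farther into the gene than both lay weak peaks with folds of 8.31, 6.05 and 4.56 and 27 to 30 reads. The weakest of these, at 47729326 to 47729481, was the lowest of the 44 by fold, over a background of 5.0 control reads where the genome-wide level is 2.41. A sixth peak, with a fold of 12.6, lay 11.5 kb before the gene start, on the side of the neighbouring gene CCDC9. TP73 enrichment at BBC3 was thus concentrated in 1 summit that held 55.0% of the reads over the 6 summits.

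PMAIP1, the gene of the BH3-only protein NOXA, had a similar layout on chromosome 18. A peak at 57566767 to 57567365 lay over the start of the gene, with a fold of 70.2, a −log10 q-value of 398 and 265 reads (234 to 299). It ranked 82 by fold among 18908 peaks. A weak peak 1.7 kb into the gene had a fold of 8.60 and 29 reads, and one 4.2 kb beyond the far end had a fold of 20.3 and 70 reads (54.6 to 88.4). The start peak had 3.79 times the reads of the next. Just outside the 20 kb limit lay peaks 20.9 kb and 22.5 kb from the span, with folds of 12.1 and 65.9. The latter, at 57594219 to 57594897 with 229 reads, was nearly as strong as the start peak and is not counted among the 44.

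BCL2L11, the gene of the BH3-only protein BIM, stood apart from these. Its peaks on chromosome 2 were weak and lay outside the span. The peak at 111873672 to 111873850, 2.3 kb before the gene start and on the side of ACOXL, had a fold of 9.17 and 31 reads (21.1 to 44.0). The peak at 111926203 to 111926345, at the far end of the gene, had a fold of 7.17 and 24 reads (15.4 to 35.7), the lowest read number of the 44, which a peak of BCL2 shared. Both folds were below the list's median of 11.3. No summit lay within the 50 kb span itself. The highest peak of BBC3 had 278 reads and that of PMAIP1 265 against 31 here, and the intervals did not overlap.

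BAX, the pore-forming effector, carried 3 peaks on chromosome 19. The strongest covered the gene start at 49457936 to 49458670, with a fold of 30.2, a −log10 q-value of 139 and 123 reads (102 to 147). Its 735 bp made it wider than the list's median of 255 bp. A peak 2.2 kb beyond the far end, at 49467111 to 49467357, had a fold of 18.6 and 64 reads (49.3 to 81.7). The next protein-coding gene on that side is FTL, which encodes ferritin light chain, and the peak list does not say to which gene the peak belongs. The last peak lay 17.3 kb beyond the gene, the farthest of all 44 from its span, with a fold of 9.37. Among the 5 genes led by a start peak, BAX had the weakest, and its interval did not overlap those of BBC3, PMAIP1, APAF1 and AEN.

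APAF1, the core of the apoptosome, had a single peak. It spanned 99037924 to 99039050 on chromosome 12, with its summit 0.7 kb before the gene start, a fold of 63.9, a −log10 q-value of 378 and 261 reads (230 to 295). It was the widest of the 44 peaks at 1127 bp, and ranked 207 by fold in the list. The rest of the 90 kb gene had no peak, and the nearest other summit lay 141.3 kb from the span. IKBIP is the protein-coding neighbour on the side of the peak, so its assignment to APAF1 alone is not settled by position.

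AEN, the gene of the p53-induced nuclease, had 5 peaks on chromosome 15. The highest lay over the gene start at 89164204 to 89164957, with a fold of 54.9, a −log10 q-value of 335 and 244 reads (214 to 277). A peak 4.8 kb before the start, at 89158791 to 89159467, had 226 reads (198 to 258) but a fold of only 27.7. The reads of these peaks overlapped in their intervals, whereas the backgrounds were 3.35 and 7.0 control reads, so the gap in fold came with a gap in the control. Another strong peak lay 6.1 kb beyond the far end, with a fold of 25.5 and 114 reads (94.0 to 137). The remaining peaks, on the same side toward ISG20, had folds of 10.1 and 5.04. All 5 AEN peaks were scored against a background above the genome-wide level, at 1.39 to 2.91 times it, and the part of this in their folds was not tested further. RefSeq's gene model is 27.6 kb long against the 12 kb span used, so peaks outside the span may lie inside longer transcripts. The motif pair printed above lies in the AEN promoter window, at a gene whose start carried a strong peak.

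TP53AIP1, named for its induction by p53, had no peak. Its nearest summit in the list lay 176.0 kb from the span, with a fold of 11.7 and 40 reads. The fewest reads at any peak in the list were 18, so binding below that level would not be seen. Calling also depends on the background, which is unknown at this gene, so binding above that level could be missed too. Its promoter windows both held a motif copy with 1 mismatch, a level 28.0% of windows reach.

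BCL2, the founding anti-apoptotic gene, had the most peaks of the set, 13 on chromosome 18, of which 12 lay inside its 197 kb span. Per 100 kb of window this was 5.49 peaks, less than the 11.5 of BBC3 and 13.3 of MCL1, and the number is to be read against the length of the gene. Folds ran from 7.17 to 51.8 with a median of 11.7, and 3 peaks reached 20. The highest, at 60848144 to 60848712 and 138.5 kb into the gene, had a fold of 51.8 and 180 reads (155 to 208). The next, at 60960056 to 60960371 and 26.8 kb into the gene, had a fold of 36.4 and 126 reads (105 to 150). The next after these, at 60827313 to 60827689 and 159.5 kb into the gene, had a fold of 34.4 and 119 reads (98.6 to 142). It belonged to a run of 5 summits within 4.10 kb, from 60825007 to 60829404, whose others had folds of 8.31 to 17.2. The remaining peaks inside the gene were weaker, with folds of 9.74 at 60818854 to 60819010, 11.7 at 60853271 to 60853538, 12.3 at 60856407 to 60856625, 7.17 at 60921225 to 60921505 and 8.31 at 60967292 to 60967454. A stretch of 64758 bp between 2 summits in the middle of the gene held none. At the start, the peak at 60987261 to 60987742 had a fold of 12.9 and 44 reads (32.0 to 59.1), so the strongest enrichment of BCL2 was deep in the gene body. At 12 of the 13 peaks the background was the genome-wide level, so these folds follow the reads directly.

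BCL2L1, the gene of BCL-XL, had 5 peaks on chromosome 20, all inside the 60 kb span. The highest, at 30298510 to 30298978 and 13.3 kb into the gene, had a fold of 46.0 and 227 reads (198 to 259). Another, at 30286907 to 30287421 and 24.8 kb into the gene, had a fold of 27.3 and 195 reads (169 to 224). The start peak, at 30311019 to 30311478, had a fold of 12.4 and 47 reads (34.5 to 62.5), and the remaining peaks had folds of 7.81 and 6.51. Every one of the 5 had a background above the genome-wide level, from 1.16 to 2.49 times it. By fold the top peak of BCL2 came before that of BCL2L1, 51.8 against 46.0, but by reads the order was the reverse, 180 against 227.

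MCL1, whose short-lived protein guards many blood cells against apoptosis, had 6 peaks on chromosome 1 and none in its span. The peak at the start, 150552071 to 150552275, had a fold of 9.74 and 33 reads (22.7 to 46.3). The other 5 formed a run within 5.34 kb, from 150534616 to 150540591, 7.0 to 12.3 kb beyond the far end of the gene. Their folds were 7.25 to 18.6 and none of the 6 peaks reached 20. The highest fold, 18.6, had 64 reads (49.3 to 81.7). The peak with the most reads was another, at 150535172 to 150535596, with 101 reads (82.3 to 123) and a fold of 16.6 over a background of 5.0. Whether this run belongs to MCL1 or to a neighbour is not settled by position.

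Summed by role, 11 peaks of the 3 BH3-only genes had a median fold of 9.17 and 24 peaks of the 3 anti-apoptotic genes one of 11.2. By the highest peak of each gene the picture was different. Folds of at least 50 were found at 2 of 3 BH3-only genes (BBC3 and PMAIP1), at 1 of 3 anti-apoptotic genes (BCL2) and at APAF1 and AEN, and not at BAX, BCL2L1, MCL1, BCL2L11 or TP53AIP1. The highest peaks of BBC3, PMAIP1, APAF1 and AEN had 244 to 278 reads, and their intervals overlapped. The overlap does not show equal enrichment, since no peak had more than 284 reads and a cap was not tested. For the genes with a direction in RefSeq, peaks within 2 kb of the start had a median fold of 30.2 (n = 9 peaks). Those farther away had one of 10.1 (n = 29 peaks). MCL1, whose start peak had a fold of 9.74, is left out of these medians. The same split over all peaks was not made, so it is not shown to be particular to these genes. Of the 44 peaks, 8 (18.2%) had another summit of the list within 1 kb, against 13.3% of all peaks, and these lay at BBC3, BCL2 and MCL1.

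Control background bore on the order of the folds. The genome-wide level, 2.41 control reads, was the background at 25 of the 44 peaks (56.8%), against 51.9% of all peaks. Background is given per 142 bp, the length of the shortest peak in the list, taken here as the fragment length. This level is the lowest the caller used. The other 19 peaks had more, up to 7.0 reads at AEN, and their folds are lower for the same reads. All peaks of AEN, APAF1 and BCL2L1 were in this second group.

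**Figure D4:**
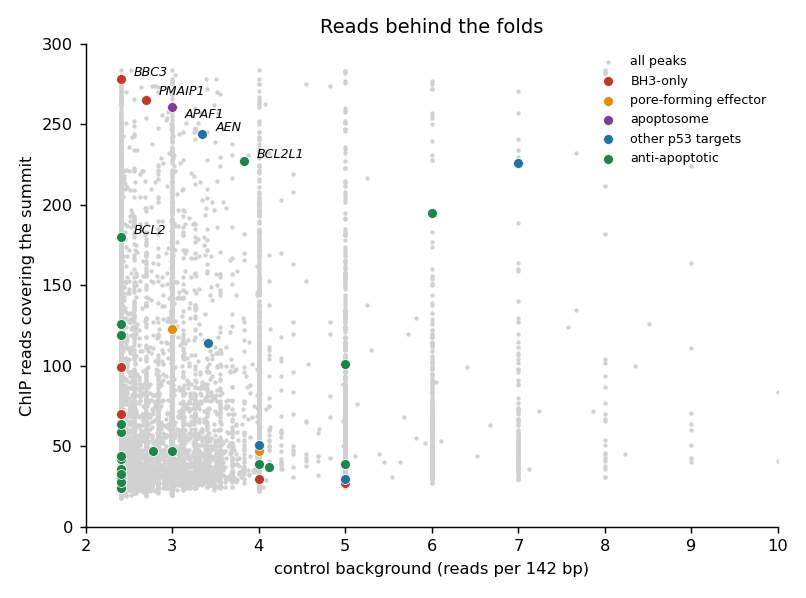
ChIP reads covering the summit (vertical axis) against control background in reads per 142 bp (horizontal axis) for the 44 peaks, coloured by role, over all peaks in grey. The axis ends at 10 reads and leaves out 18 peaks of the list, none of them from these genes. The highest peaks of BBC3, PMAIP1, APAF1 and AEN have 244 to 278 reads over backgrounds of 2.41 to 3.35.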

How the data were processed

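TP73 ChIP-seq and an input were made from TL-Om1 cells, with 1 library each. The authors used the hg19 build with the tools Bowtie2, SAMtools and MACS2, per the submitters' processing notes, which name no parameters in the sources used here. The deposited peak list gives for each peak the fold enrichment, a ratio of ChIP pileup to background, the −log10 of the p-value and of the q-value, a score (not used), and the summit. The labels name whole cell extract as background, whereas the deposited peak names contain IgG, so the control library is not settled.

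Summits were assigned to genes with the hg19 spans of the rule, rounded to the kb, plus 20 kb. Members and lists were chosen with earlier results of these data known. All 10 genes are named, with their highest peaks singly and their in-span peaks singly or by range. ChIP reads and background were solved from fold = (pileup + 1) / (background + 1) and the Poisson p-value. All 18908 peaks had a solution, 101 more than 1, and none of the latter is among the 44. A ChIP read was worth 0.975 units of pileup. All of the 8987 single-solution peaks not used to fit that value gave whole reads within 0.01. The solving was tested on simulated data. Gene direction, neighbours and promoters came from RefSeq (GRCh38.p14) by symbol, with 9 of 10 genes in the promoter table. Without an annotation of hg19, the planned count for other pathway genes and the sequences under peaks are not analysed here. Depth is given as reads per summit; library totals are not in the peak list. Scripts ran under Python 3.11.15 (scipy 1.17.1, numpy 2.4.6, pandas 2.3.3), with figures by matplotlib 3.10.9.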

Additional observations from a re-analysis of the deposited data

How the results depend on the processing

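The number of peaks depended on the window. With summits inside the spans only, 26 of 44 peaks and 6 of 9 genes were left, because the peaks of APAF1, BCL2L11 and MCL1 all lie outside them, some by less than the kb to which spans are known. Windows of 5 kb and 50 kb gave 35 and 58 peaks. A −log10 q-value of at least 10 and a fold of at least 5 each gave 43, counting any overlap gave 44, and merging peaks closer than 500 bp gave 39. The median fold stayed between 11.3 and 12.6 over these settings, and was 12.38 without BCL2 and 12.35 without MCL1, 2 settings added after seeing the data. The share of peaks with a fold of at least 20 ran from 29.3% to 38.5%, against 23.0% to 24.1% of all peaks. Of 130 values of single genes under these settings, 118 stayed close to the main value (a count within 1.5 times of it, that ratio included, or a highest fold within the interval of its reads). Part of this was fixed in advance, because merging kept the highest fold and filters could add no peak to TP53AIP1. With summits inside the spans only, APAF1, MCL1 and BCL2L11 had no peak and so gave no highest fold. The highest fold of MCL1 was 9.74 with 5 kb and 32.6 with 50 kb. Leaving out a library could not be tried with a single ChIP library. No paired analysis was possible because the design has 1 library of each kind.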

Other observations

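Several peaks just outside the 20 kb limit were stronger than most of the 44. Beside the peak of fold 65.9 near PMAIP1, a peak 23.9 kb from BBC3 had a fold of 32.9 with 114 reads, and one 32.1 kb from MCL1 had a fold of 32.6 with 118 reads. Near BCL2L1, BCL2L11 and BCL2 the nearest summits outside lay 22.5, 33.1 and 47.5 kb away, with folds of 11.6, 11.9 and 8.31. The genes to which these peaks belong were not determined.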
